A study of Homo sapiens with 9 samples.

Results

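A set of 10 genes that shape chromatin loops was followed across a breast cancer progression series: CTCF, its germline paralog CTCFL, the other architectural or boundary factors YY1, ZNF143, MAZ, PATZ1 and LDB1, and the cohesin acetylation genes ESCO1, ESCO2 and CDCA5. They were taken by gene symbol, 10 of the 62666 genes in the deposited tables, and 9 of the 10 passed the filter on low counts that left 17910 genes for testing. Polyadenylated RNA of 3 human mammary epithelial lines had been sequenced to follow gene expression along the progression, with 3 libraries per line. MCF10A is immortalized but does not form tumours. MCF10AT1 was made from it with an activated HRAS gene, as a model of premalignancy, and MCF10Ca1a descends from these cells and forms carcinomas in mice. All were grown in the same medium with insulin, EGF, hydrocortisone and cholera toxin, with 5% horse serum for MCF10A and MCF10Ca1a and 2.5% for MCF10AT1, so that serum and line cannot be told apart in comparisons with MCF10AT1. Each stage is 1 line, and the labels do not say whether the libraries of a line came from separate cultures, so the p-values measure only the spread between these libraries.

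Cohesin is a ring-shaped complex that extrudes loops of chromatin and also holds sister chromatids together. CTCF, a zinc finger protein, halts the moving ring at its binding sites and so sets the borders of many domains. The acetyltransferases ESCO1 and ESCO2 modify the SMC3 subunit of the ring. ESCO1 acts throughout the cell cycle, whereas ESCO2 acts in S phase together with CDCA5, also called sororin, which keeps the release factor WAPL from opening the ring. YY1 and LDB1 bring promoters and enhancers together, ZNF143 binds many promoters at loop anchors, and MAZ and PATZ1 are zinc finger proteins that bind G-rich sequences, with insulator activity described for both.

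The libraries held 3.29e+07 to 6.95e+07 estimated counts, and those of MCF10Ca1a, at 3.52e+07 or fewer, were the shallowest. HRAS, the gene that MCF10AT1 was given, had 41.0 ± 1.95 CPM (counts relative to library totals scaled by TMM) in MCF10A, 97.6 ± 2.94 in MCF10AT1 and 145 ± 3.60 in MCF10Ca1a (SD, n = 3). All 5 epithelial markers examined (EPCAM, CDH1, KRT5, KRT8, KRT18) were expressed in every library, with a summed level of 1597 to 2998 TPM (transcript level per length and library). The summed levels of 4 fibroblast and 4 endothelial markers were at most 3.67 and 20.8 TPM, and most of the endothelial sum was PECAM1 (18.7 TPM in MCF10Ca1a). Of the immune markers, CD3E had no count in any library and CD14 had 8.62 TPM in MCF10A, 3.68 in MCF10AT1 and 0.205 in MCF10Ca1a. PTPRC, COL3A1, CDH5 and VWF had means under 0.1 TPM. Their part in the results was not tested. No libraries of a line were identical. The 2 libraries of a line that differed most were MCF10A replicates 1 and 3 (chi-square per degree of freedom 69.7, against 2.32 for the closest pair).

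Measured per length, in TPM, MAZ and YY1 were the most abundant of the 10 genes in each line, and the order below them changed. In MCF10A, MAZ stood at 116 ± 16.1 TPM, YY1 at 70.5 ± 6.10, CDCA5 at 53.4 ± 6.29, ESCO2 at 32.2 ± 0.61, CTCF at 24.6 ± 4.89, LDB1 at 20.1 ± 0.73, ZNF143 at 18.1 ± 3.13, PATZ1 at 11.3 ± 2.26 and ESCO1 at 10.7 ± 0.62 (SD, n = 3). The libraries of CTCF, LDB1 and ZNF143 overlapped there, as did those of PATZ1 and ESCO1. In MCF10Ca1a the order was MAZ at 79.1 ± 4.05 TPM, YY1 at 73.4 ± 2.08, ZNF143 at 59.4 ± 2.65, ESCO1 at 23.1 ± 0.40, CTCF at 19.4 ± 0.51, CDCA5 at 19.3 ± 0.06, LDB1 at 15.2 ± 1.16, PATZ1 at 10.9 ± 0.36 and ESCO2 at 7.57 ± 0.996 (SD, n = 3). MAZ overlapped YY1 and CTCF overlapped CDCA5 in that line. ESCO2 thus went from the fourth place to the last tested one, while ESCO1 went the other way from the last to the fourth.

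Differences between lines were tested with edgeR's quasi-likelihood test on gene counts, with Benjamini-Hochberg adjustment over all 17910 genes and a threshold of 0.05. The 3 comparisons share libraries and are not independent of each other. In MCF10AT1 against MCF10A, 7 of the 9 members tested were called, 1 higher and 6 lower, where 61.6% of all genes were called (29.8% higher and 31.8% lower). In MCF10Ca1a against MCF10A, 8 of 9 were called, 2 higher and 6 lower, against 80.9% of all genes (39% higher and 41.9% lower). In MCF10Ca1a against MCF10AT1, 7 of 9 were called, 3 higher and 4 lower, against 78.4% of all genes (38% higher and 40.3% lower). A call by itself therefore said little here, since most expressed genes were called, and the sizes and directions of the individual changes are described below. The members' median log2 change was -0.40, -0.48 and -0.07 in these comparisons, where the median of all genes was -0.0038, -0.05 and -0.04 and the median size of change over all genes, up or down, was 0.38, 0.84 and 0.76. On log2(TPM + 0.1), limma called 5, 7 and 6 of the 9 members, where it called 54.1%, 77% and 75.1% of all genes. That scale also shifted the balance over all genes. In MCF10AT1 against MCF10A, 3583 genes were higher and 6102 lower (20% and 34.1%; 5335 and 5690 by counts). In MCF10Ca1a against MCF10A, 7576 were higher and 6215 lower (42.3% and 34.7%; 6979 and 7512 by counts). In MCF10Ca1a against MCF10AT1, 8227 were higher and 5226 lower (45.9% and 29.2%; 6808 and 7226 by counts). The libraries of the lines compared did not overlap in CPM for 7, 8 and 8 of the 9 members, against 65.4%, 81.5% and 81.9% of all genes.

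**Figure D1:**
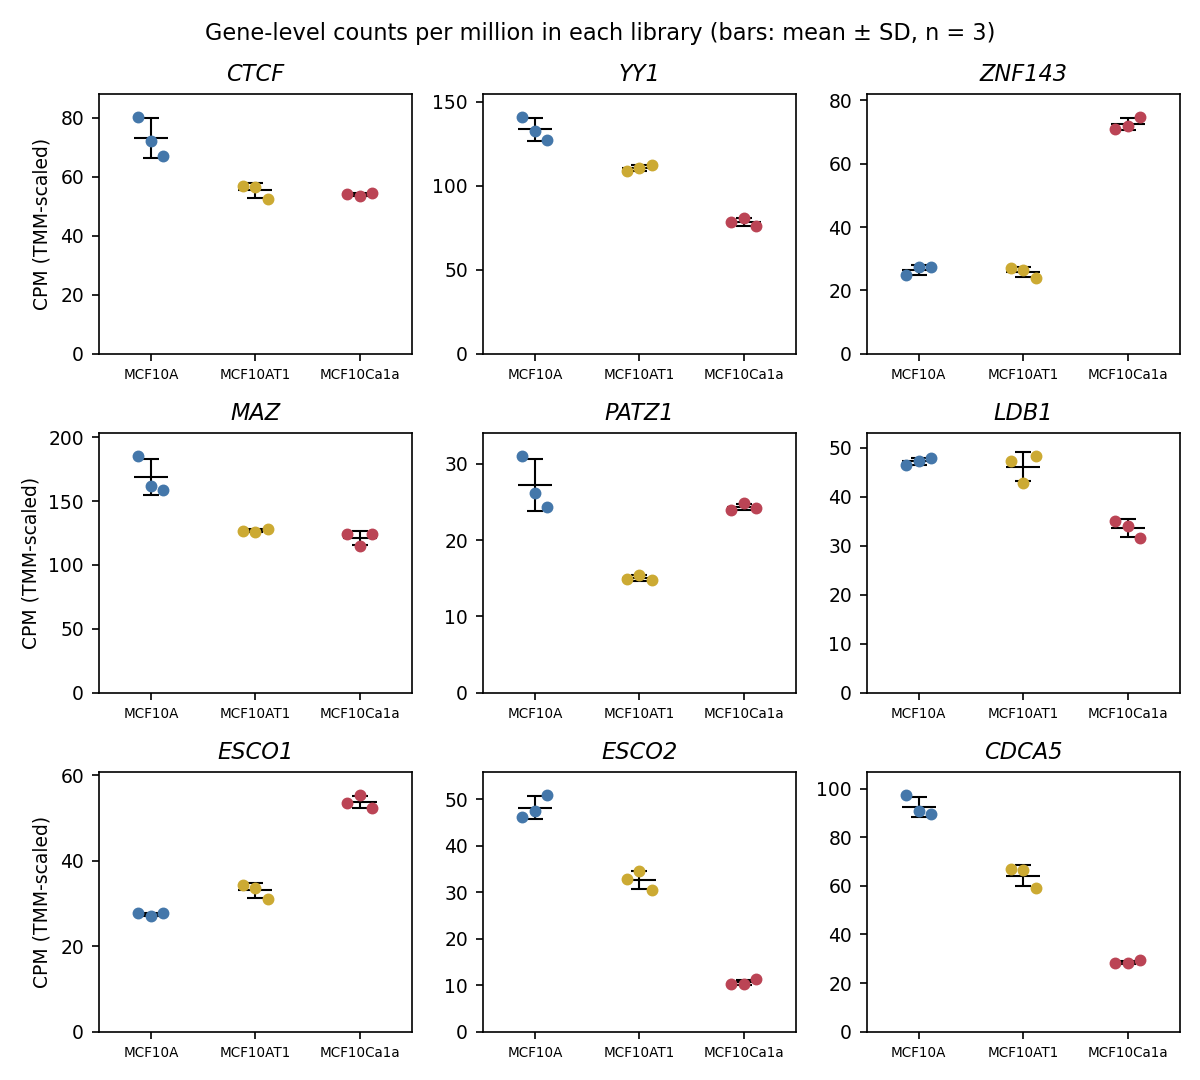
Gene-level CPM, scaled by TMM, of the 9 members with counts in each library of MCF10A, MCF10AT1 and MCF10Ca1a; points are libraries, and the bars give the mean ± SD (n = 3) on axes that start at 0. ESCO2 and CDCA5 step down at each stage, ESCO1 steps up, ZNF143 is high in MCF10Ca1a alone and PATZ1 is low in MCF10AT1 alone.

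CTCF (ENSG00000102974.16; chromosome 16:67562407-67639185, plus strand; gene positions are those of GENCODE 29 on GRCh38) was lower in both derived lines than in MCF10A, and those 2 lines overlapped. Its 3 MCF10A libraries had 80.3, 72.3 and 67.0 CPM, the MCF10AT1 libraries 56.9, 56.7 and 52.6, and the MCF10Ca1a libraries 54.1, 53.5 and 54.4. Every MCF10A library lay above every library of the other lines. CTCF fell to 75.7% of its MCF10A level in MCF10AT1 (log2 change -0.40, SE 0.06, edgeR adjusted p = 8.34e-05) and to 73.8% in MCF10Ca1a (-0.44, SE 0.06, adjusted p = 2.25e-05). From MCF10AT1 to MCF10Ca1a the fitted change was -0.04 (SE 0.06, adjusted p = 0.617), and its sign turned under 6 of the alternatives tried. The call in MCF10Ca1a against MCF10A was lost on TPM with no filter on low values (limma adjusted p = 0.0795). Its main transcript ENST00000264010.10 took 66.2 ± 8.17%, 72.9 ± 17.7% and 60.2 ± 12.5% of its TPM in the 3 lines (SD, n = 3), and ENST00000646771.1 and ENST00000644753.1 were the others that reached 10% in a line. Both of those were at 0 in 1 or more libraries, none of the 3 transcripts was called by edgeR in any comparison, and the share test made no call for CTCF.

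CTCFL, also known as BORIS (ENSG00000124092.13; chromosome 20:57495966-57525652, minus strand), is a testis gene with a CTCF-like zinc finger domain that some cancers switch on. It had 0 counts in all 9 libraries. A count of 0 allows up to 3 counts, or 0.043 to 0.089 CPM depending on the library's depth (counting error only), so CTCFL was not detected at this depth in any of the lines. A list of 10 other germline and cancer-testis genes, which includes MAGEA3, PRAME and DDX4, had no member above the count filter, and its summed level was at most 0.23 TPM in any library.

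YY1 (ENSG00000100811.15; chromosome 14:100238298-100282792, plus strand) gave different pictures as a count and as a level per length. By gene counts its MCF10A libraries had 141, 132 and 127 CPM, its MCF10AT1 libraries 109, 111 and 113 and its MCF10Ca1a libraries 78.5, 80.9 and 75.7, with no overlap between any 2 lines. The edgeR test called it lower at each step. Its log2 change was -0.27 at the first step (SE 0.05, adjusted p = 4.54e-04), -0.50 at the second (SE 0.05, adjusted p = 9.15e-07) and -0.77 over both (SE 0.05, adjusted p = 7.53e-09). In TPM the MCF10A libraries read 77.3, 68.7 and 65.5, the MCF10AT1 libraries 66.0, 66.7 and 66.1, and the MCF10Ca1a libraries 72.8, 75.7 and 71.6. The MCF10Ca1a libraries lay within the MCF10A range there. On the log2(TPM + 0.1) scale YY1 differed by -0.085, 0.061 and 0.146 in the 3 comparisons (SE 0.06 each). Of these differences limma called none (adjusted p = 0.278, 0.389 and 0.0544). With the median change of all genes subtracted, which was not tested, they were 0.03, -0.04 and -0.06. The deposited counts already corrected for transcript length gave no YY1 call in the 2 comparisons with MCF10A either (edgeR adjusted p = 0.477 and 0.0686). In MCF10Ca1a against MCF10AT1 they still called YY1 lower, by a smaller log2 change of -0.15 (edgeR adjusted p = 0.0160).

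The difference between the 2 scales lay in the transcripts of YY1. The long transcript ENST00000262238.10, with 6697 bases in GENCODE 29 (where it has version 8), ends in an exon at chromosome 14:100277418-100282792. The short coding transcript ENST00000554804.1, of 1114 bases, starts its last exon at the same base and stops at 100278142, so that the long form carries most of its extra length in its 3' end. One unit of TPM of the long form stood for 6.95 times as many counts as one of the short form (6.86 to 7.02 times over the libraries). The long form made up 29.3% to 32.2% of YY1's TPM in MCF10A, 19.6% to 20.2% in MCF10AT1 and 9.64% to 10.6% in MCF10Ca1a. No library of one line reached the range of another, and the share fell in the order MCF10A, MCF10AT1, MCF10Ca1a. The short form took 18.4 ± 2.98%, 23.5 ± 1.58% and 30.1 ± 2.63% in the same order (SD, n = 3). A further transcript, ENST00000704485.1, which GENCODE 29 does not list, took 47.8 ± 2.10%, 52.6 ± 2.37% and 56.7 ± 3.73% (SD, n = 3).

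A test of transcript shares, which sets each transcript's counts against the remaining counts of its gene on the log2 scale (limma, with a Simes p per gene), called YY1 in MCF10Ca1a against MCF10A (adjusted p = 2.60e-04) and against MCF10AT1 (adjusted p = 0.00453), where 47.7% and 39.7% of the 11650 genes tested were called. In MCF10AT1 against MCF10A it did not call YY1 (adjusted p = 0.0683; 7.06% of genes called), although 3 of the 13 alternatives tried did (adjusted p = 0.0120 to 0.219 over the 13). Tested as transcripts with edgeR, an alternative added after the count and TPM values had been seen to part, the long form fell in each comparison. Its libraries had 103, 91.9 and 85.5 CPM in MCF10A, followed by 61.7, 61.8 and 63.6 in MCF10AT1 and by 30.2, 28.5 and 28.1 in MCF10Ca1a, with no overlap. Against MCF10A, its log2 change was -0.58 in MCF10AT1 (SE 0.07, edgeR adjusted p = 0.00123) and -1.69 in MCF10Ca1a (SE 0.07, edgeR adjusted p = 1.27e-06), where 13.1% and 35.9% of all 79409 transcripts were called. The short form rose in MCF10Ca1a against MCF10A, from 7.95 ± 1.16 to 12.6 ± 0.95 CPM (log2 change 0.67, SE 0.13, adjusted p = 0.0048), and ENST00000704485.1 stood at 30.8 ± 1.92, 35.2 ± 1.36 and 35.2 ± 3.37 CPM with no call in any comparison. All YY1 transcripts other than the long one together held 39.6 to 42.3 CPM in MCF10A, 46.6 to 48.9 in MCF10AT1 and 47.8 to 52.3 in MCF10Ca1a, so that the counts YY1 lost were those of the long transcript. The uncertainty of assigning reads that transcripts share was not used here.

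**Figure D2:**
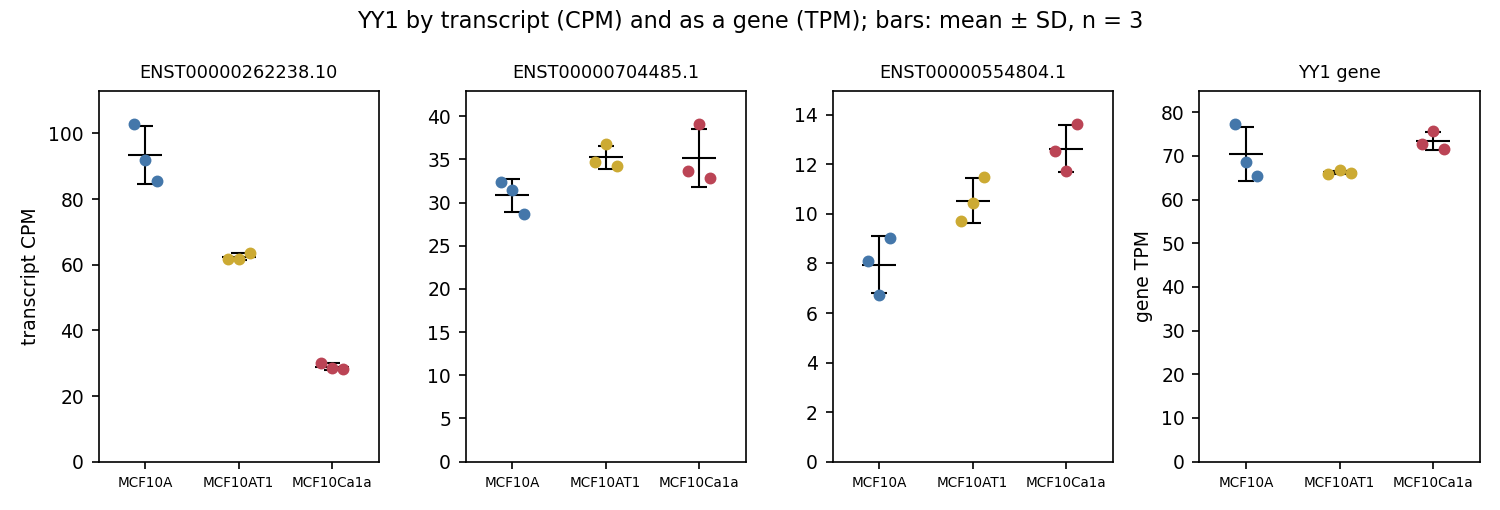
YY1 in each library of MCF10A, MCF10AT1 and MCF10Ca1a: CPM of its 3 main transcripts, long (ENST00000262238.10), intermediate (ENST00000704485.1) and short (ENST00000554804.1), and TPM of the whole gene; bars give the mean ± SD (n = 3) and axes start at 0. The long transcript drops from 93.4 to 28.9 CPM while the short one goes from 7.95 to 12.6 and the gene's TPM stays between 65.5 and 77.3.

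ZNF143 (ENSG00000166478.10; chromosome 11:9460319-9528524, plus strand) had the largest rise of the members, between MCF10AT1 and MCF10Ca1a. Its MCF10A libraries had 24.7, 27.4 and 27.4 CPM, its MCF10AT1 libraries 27.0, 26.6 and 24.0 and its MCF10Ca1a libraries 71.0, 71.8 and 74.7. The first 2 lines overlapped, and every MCF10Ca1a library was far above both. The rise was 2.74-fold against MCF10A (log2 change 1.45, SE 0.06) and 2.81-fold against MCF10AT1 (1.49, SE 0.06, edgeR adjusted p = 3.75e-11), whereas MCF10AT1 against MCF10A gave -0.04 (SE 0.06, adjusted p = 0.633). The main coding transcript ENST00000396602.7 rose with the gene in MCF10Ca1a, from 23.3 CPM in MCF10A to 52.3 (log2 change 1.17, SE 0.09, adjusted p = 2.80e-05). A minor coding transcript, ENST00000530463.5, rose more, from 0.97 to 13.1 CPM (3.76, SE 0.62, adjusted p = 0.00199). A retained-intron transcript, ENST00000532305.1, took 16.8 ± 14.5%, 15.7 ± 13.9% and 27.5 ± 2.57% of the gene's TPM in MCF10A, MCF10AT1 and MCF10Ca1a (SD, n = 3). It was at 0 in 1 library each of MCF10A and MCF10AT1, and it was not called (log2 change 2.22, SE 1.68, edgeR adjusted p = 0.352 in MCF10Ca1a against MCF10A). The short coding transcript ENST00000532577.5 took 10.3%, 9.91% and 10.4% and was not called either. The share test called ZNF143 in MCF10Ca1a against MCF10A at an adjusted p of 0.032, a call that was lost on leaving out MCF10A replicate 3, MCF10AT1 replicate 1 or 3, or any 1 MCF10Ca1a library (adjusted p = 0.0511 to 0.096).

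RefSeq promoter windows, taken as the 250 bases before the annotated start in GRCh38.p14, were found for 7 of the 10 members, PATZ1, ESCO1 and ESCO2 being the ones without. The ZNF143 window was one of 2 among these genes with a CCAAT box (CCAAT or its reverse complement, on either strand; 32% of all 35116 windows hold one), and it held 2, at 105 to 101 and 61 to 57 bases before the start. It held no E2F site and no cell cycle homology region. The stretch below is the part of that window outside every exon of GENCODE 29, at chr11:9460856-9460964 on the plus strand, with both boxes in capitals, and is shown because ZNF143 was the member that rose most. It lies inside the ZNF143 gene as GENCODE 29 annotates it, because other transcripts start further upstream, and it is intronic for those.
ZNF143: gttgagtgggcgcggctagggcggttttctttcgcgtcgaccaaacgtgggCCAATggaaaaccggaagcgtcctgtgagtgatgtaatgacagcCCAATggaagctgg

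MAZ (ENSG00000103495.15; chromosome 16:29806106-29811164, plus strand), a G-rich sequence binding factor, followed CTCF in shape. Its MCF10A libraries had 185, 162 and 159 CPM, its MCF10AT1 libraries 127, 126 and 129 and its MCF10Ca1a libraries 124, 115 and 125. All MCF10A values lay above those of the other lines. MAZ fell to 75.2% of its MCF10A level in MCF10AT1 (log2 change -0.41, SE 0.06, edgeR adjusted p = 6.01e-05) and to 71.9% in MCF10Ca1a (-0.48, SE 0.06). Between the derived lines, whose libraries did not overlap in CPM, the change was -0.07 (SE 0.06, adjusted p = 0.352). Over the 20 alternatives it ran from -0.19 to 0.10, and under 6 of them MAZ changed sign or was called lower. Its transcripts moved apart in MCF10Ca1a: ENST00000219782.11 made up 24.8% to 29.7% of MAZ in MCF10A, 30.5% to 34.2% in MCF10AT1 and 47.6% to 49.2% in MCF10Ca1a. The transcript ENST00000322945.11 fell from 62.4 to 30.5 CPM in MCF10Ca1a relative to MCF10A (log2 change -1.03, SE 0.07, adjusted p = 1.62e-05), while ENST00000219782.11 had 60.0 and 67.8 CPM (0.18, SE 0.12, adjusted p = 0.292). Both minor coding transcripts of MAZ were lower there too, ENST00000568544.5 with -2.31 on the log2 scale (SE 0.27, adjusted p = 2.98e-04 by edgeR) and ENST00000563402.1 with -1.32 (SE 0.36, adjusted p = 0.0237). The share test called MAZ in both comparisons with MCF10Ca1a (adjusted p = 0.00715 and 0.0198), the second of which was lost on leaving out MCF10AT1 replicate 1, 2 or 3 (adjusted p = 0.0595, 0.0554 and 0.0607).

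PATZ1 (ENSG00000100105.18; chromosome 22:31325804-31346232, minus strand) was low in the middle line only. Its libraries had 31.0, 26.2 and 24.4 CPM in MCF10A, followed by 14.9, 15.5 and 14.7 in MCF10AT1 and by 24.0, 24.8 and 24.2 in MCF10Ca1a. The outer lines overlapped, and all 3 MCF10AT1 libraries were below every other. PATZ1 fell to 55.3% of its MCF10A level in MCF10AT1 (log2 change -0.86, SE 0.08, edgeR adjusted p = 3.41e-07) and was higher in MCF10Ca1a than in MCF10AT1 (0.69, SE 0.08, adjusted p = 1.80e-06). In MCF10Ca1a against MCF10A the change was -0.16 (SE 0.08, adjusted p = 0.0655), and it passed the threshold without MCF10A replicate 2 (-0.20, adjusted p = 0.0498) or replicate 3 (-0.25, adjusted p = 0.00449), with no filter on low counts and on length-scaled counts. Over all 20 alternatives this change ran from -0.25 to -0.04, and only these 4 settings called it. MCF10AT1 was also the line with less serum.

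LDB1 (ENSG00000198728.11; chromosome 10:102107560-102120453, minus strand), the scaffold that joins LIM-domain proteins and transcription factors, overlapped between the first 2 lines and was lower in the last. Its libraries had 46.4, 47.4 and 47.9 CPM in MCF10A, followed by 47.4, 42.9 and 48.3 in MCF10AT1 and by 35.1, 34.1 and 31.5 in MCF10Ca1a. The MCF10Ca1a libraries lay below all others, and LDB1 fell to 71.1% of its MCF10A level there (log2 change -0.49, SE 0.06, edgeR adjusted p = 3.07e-06), with -0.46 (SE 0.06) against MCF10AT1 and -0.03 (SE 0.06, adjusted p = 0.649) between the first 2 lines. The transcript ENST00000361198.9 fell more than the gene. It took 28.3% to 31.7% of LDB1 in MCF10A, 23.9% to 29.2% in MCF10AT1 and 12.3% to 18.8% in MCF10Ca1a. It fell from 12.3 to 4.21 CPM in MCF10Ca1a relative to MCF10A (log2 change -1.55, SE 0.13, adjusted p = 5.51e-05), and the main transcript ENST00000673968.1 fell from 30.1 to 23.9 CPM (-0.33, SE 0.07, adjusted p = 0.00738). The third transcript, ENST00000425280.2, took 13.3 ± 3.07%, 17.8 ± 4.31% and 21.8 ± 3.79% of LDB1 in the 3 lines (SD, n = 3) and was called in no comparison as a transcript. The share test called LDB1 in MCF10Ca1a against MCF10A (adjusted p = 0.00731), under all 13 alternatives tried as well. Its call in MCF10Ca1a against MCF10AT1 (adjusted p = 0.0292) held in 6 of the 13 (up to 0.0935).

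The 2 acetyltransferases moved in opposite directions at each stage. ESCO1 (ENSG00000141446.11; chromosome 18:21529281-21600884, minus strand) had 27.7, 27.1 and 27.7 CPM in MCF10A, followed by 34.4, 33.7 and 31.2 in MCF10AT1 and by 53.6, 55.4 and 52.4 in MCF10Ca1a. No 2 lines overlapped, and ESCO1 was 1.96-fold higher in MCF10Ca1a than in MCF10A (log2 change 0.97, SE 0.05, edgeR adjusted p = 5.00e-10) and 1.63-fold higher than in MCF10AT1 (0.70, SE 0.05). The smaller rise in MCF10AT1 against MCF10A was 1.20-fold (0.27, SE 0.05, edgeR adjusted p = 4.62e-04). On TPM, where the lines overlapped, limma did not call it (log2 change 0.13, SE 0.08, adjusted p = 0.167). Relative to the median of all genes, which that test did not subtract, ESCO1 differed by 0.25 on TPM. Its main transcript ENST00000269214.10 made up 83.6 ± 3.43%, 83.9 ± 4.26% and 84.9 ± 1.19% of its TPM in the 3 lines (SD, n = 3), and the share test made no call for ESCO1. The nonsense-mediated decay transcript ENST00000383276.1 took 16.1%, 15.6% and 13.8% and rose in MCF10Ca1a relative to MCF10A (log2 change 0.76, SE 0.24, edgeR adjusted p = 0.0431).

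ESCO2 (ENSG00000171320.15; chromosome 8:27771949-27812640, plus strand) had 46.2, 47.5 and 50.9 CPM in MCF10A, followed by 32.8, 34.5 and 30.5 in MCF10AT1 and by 10.2, 10.3 and 11.2 in MCF10Ca1a. Each line lay wholly below the one before it. ESCO2 fell to 67.6% of its MCF10A level in MCF10AT1 (log2 change -0.56, SE 0.06, edgeR adjusted p = 1.70e-06) and was 4.55-fold lower in MCF10Ca1a (-2.19, SE 0.07, adjusted p = 1.64e-12), the largest change of any member. Its main coding transcript ENST00000305188.13 fell with it (log2 change -2.22, SE 0.06, adjusted p = 1.82e-07 in MCF10Ca1a against MCF10A) and took 72.7%, 75.2% and 72.9% of its TPM in the 3 lines. A noncoding transcript, ENST00000523910.1, took 23.1%, 22.1% and 17.3%, was at 0 in 1 MCF10Ca1a library and was not called. A share call for ESCO2 in both comparisons with MCF10Ca1a came from transcripts below 10% of its TPM and was lost when transcripts needed 50 counts (adjusted p = 0.408 and 0.326).

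As a ratio within each library, ESCO2 to ESCO1 turned over. In TPM, ESCO2 was 2.82 to 3.18 times ESCO1 in the MCF10A libraries and 1.48 to 1.75 times in MCF10AT1, while in MCF10Ca1a ESCO1 was 2.60 to 3.43 times ESCO2. The mean log2 ratio of their CPM was 0.81 ± 0.07 in MCF10A, -0.02 ± 0.05 in MCF10AT1 and -2.34 ± 0.11 in MCF10Ca1a (SD, n = 3), an 8.90-fold difference between the ends of the series. The exact permutation test (two-sided) of each difference gave p = 0.10, the smallest that 3 libraries against 3 allow, and 0.10 after adjustment over the 12 ratio tests made.

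CDCA5 (ENSG00000146670.10; chromosome 11:65066300-65084164, minus strand), the sororin gene, fell beside ESCO2. Its libraries had 97.3, 90.6 and 89.6 CPM in MCF10A, followed by 66.9, 66.3 and 59.2 in MCF10AT1 and by 28.2, 28.1 and 29.3 in MCF10Ca1a. Again no 2 lines overlapped. CDCA5 fell to 69.4% of its MCF10A level in MCF10AT1 (log2 change -0.53, SE 0.06, edgeR adjusted p = 2.53e-06) and to 30.9% in MCF10Ca1a (-1.70, SE 0.06, adjusted p = 7.74e-12). WAPL, the release factor that sororin opposes, had 74.8 ± 7.11, 68.3 ± 0.62 and 75.3 ± 2.21 CPM in the 3 lines (SD, n = 3) and was called in no comparison (adjusted p = 0.0836, 0.885 and 0.0544). The log2 ratio of CDCA5 to WAPL was 0.31 ± 0.07 in MCF10A, -0.09 ± 0.09 in MCF10AT1 and -1.40 ± 0.02 in MCF10Ca1a (SD, n = 3; exact permutation p = 0.10 for each difference). The main CDCA5 transcript ENST00000275517.8 took 90.1% to 92.2% of its TPM in MCF10A, 89.6% to 90.3% in MCF10AT1 and 81.0% to 83.8% in MCF10Ca1a, and the share test called the gene in MCF10Ca1a against MCF10A (adjusted p = 0.00842). In MCF10Ca1a against MCF10AT1 the call (adjusted p = 0.0246) held in 8 of 13 alternatives (up to 0.0961).

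**Figure D3:**
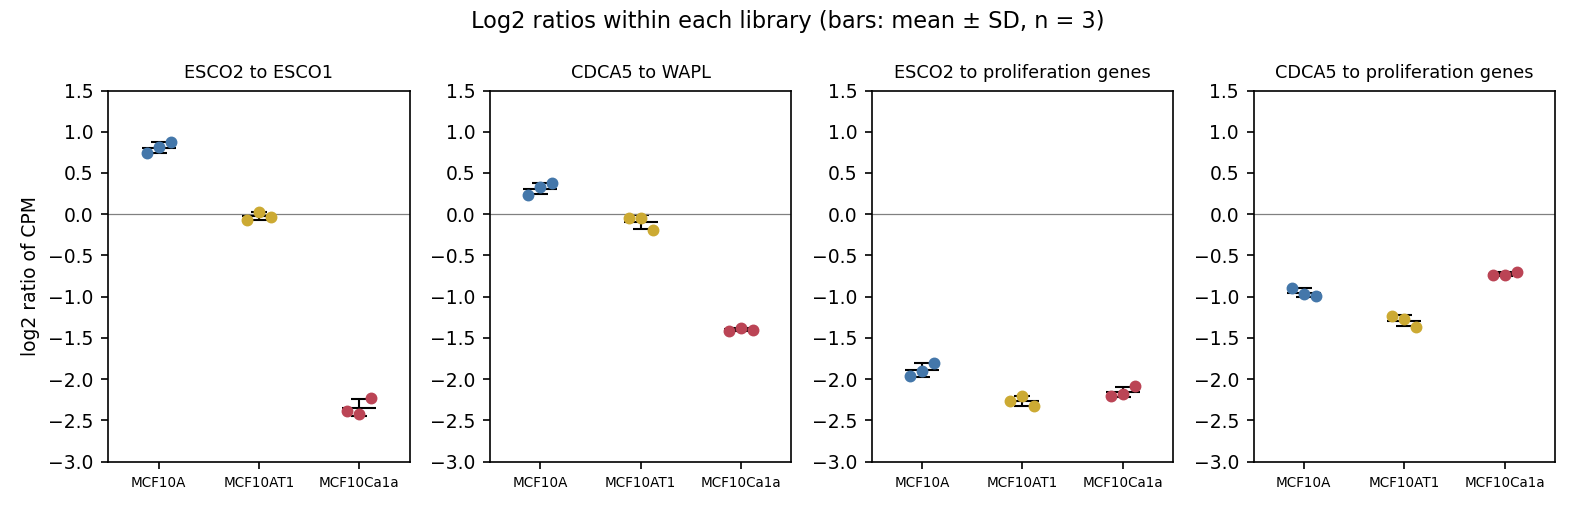
Log2 ratio of CPM within each library of MCF10A, MCF10AT1 and MCF10Ca1a for ESCO2 to ESCO1, CDCA5 to WAPL, and ESCO2 and CDCA5 to the mean log2 CPM of 15 proliferation genes; points are libraries and bars the mean ± SD (n = 3), with a line at 0. The first 2 ratios are lower at each stage, reaching -2.34 and -1.40, while both ratios to the proliferation genes are lowest in MCF10AT1, and that of CDCA5 is 0.57 higher in MCF10Ca1a than in MCF10AT1.

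The CDCA5 promoter window was the only one among the members' windows with both an E2F site (TTTGGCGC, TTTCCCGC, TTTGGCGG or TTTCCCGG, either strand, in 3.67% of all windows) and a cell cycle homology region (TTTGAA or TTCGAA, in 14.3% of windows), elements known from genes expressed in S phase and mitosis. Of all 35116 windows, 0.345% hold both. The 30 bases with both matches in capitals, first the E2F site at 45 to 38 bases and then the homology region at 26 to 21 bases before the RefSeq start, lie at chr11:65084058-65084087 on the minus strand. GENCODE 29 starts the CDCA5 gene further upstream, and all 30 bases lie in sequence that it annotates as exon.
CDCA5: ccTTTCCCGCagggcgggtaaTTCGAAcgt
The CTCF window held a TTTGAA match without an E2F site, and no other member window held either element. Of the other motifs searched on both strands, the ZNF143 binding motif SBS (in 1.79% of all windows) and the YY1 motif GCCATNTT (3.86%) were in no member window. The MAZ motif GGGAGGGG (13.8% of windows) was in the windows of CTCF, CTCFL, LDB1 and MAZ itself, and the GC box GGGGCGGGG (15.1%) in those of CTCFL, LDB1 and MAZ, overlapping the MAZ motif in LDB1. The core of the CTCF motif (8.9%) was found in 2 of the 3 windows of CTCFL. These matches are letters in a window and no measure of binding.

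ESCO2 and CDCA5 are cell cycle genes, and proliferation genes were examined beside them. By counts, all 15 proliferation genes examined (among them MKI67, TOP2A, CDK1, CCNB1 and MCM2) fell from MCF10A to MCF10Ca1a. Their log2 changes lay between -3.59 (CCNB1, the mitotic cyclin) and -0.16 (E2F1) with a median of -1.88, where 41.9% of all genes were called lower. In TPM the E2F1 libraries of MCF10Ca1a (6.66 to 6.88) lay within the MCF10A range (6.07 to 7.99). In MCF10AT1 against MCF10A, 10 of the 15 were lower and 2 higher, with a median of -0.22, where 31.8% of all genes were lower and 29.8% higher. Set against the mean of these genes within each library, ESCO2 differed by -0.38 in MCF10AT1 against MCF10A and by -0.26 in MCF10Ca1a against MCF10A on the log2 scale, and CDCA5 by -0.34 and 0.23. In MCF10Ca1a against MCF10AT1 the differences were 0.11 for ESCO2 and 0.57 for CDCA5, so that CDCA5 was 1.48-fold higher relative to these genes in MCF10Ca1a than in MCF10AT1. The exact permutation p was 0.10 for each of these, the smallest possible, and 0.10 after adjustment. On TPM the ESCO2 difference between these 2 lines was 0.12 with an adjusted p of 0.60, and that of CDCA5 was 0.68. In RNA from whole cultures, fewer cells in S or M phase and less RNA per such cell cannot be told apart.

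The rest of the cohesion machinery was counted from lists of known factors. Over all genes tested, 29.8% were higher and 31.8% lower in MCF10AT1 against MCF10A, 39% and 41.9% in MCF10Ca1a against MCF10A, and 38% and 40.3% in MCF10Ca1a against MCF10AT1. Of the 11 cohesin core, loading and release genes, 9 were lower and 0 higher in MCF10AT1 against MCF10A (median log2 change -0.31), and 9 were lower and 1 higher in MCF10Ca1a against MCF10A (median -0.45). From MCF10AT1 to MCF10Ca1a, 6 were lower and 2 higher (median -0.31). RAD21, the subunit that closes the ring, had the largest fall between MCF10A and MCF10Ca1a, from 609 ± 18.0 to 155 ± 2.62 CPM (SD, n = 3; log2 change -1.97, SE 0.06). NIPBL, which loads the ring and drives extrusion, was the 1 that rose over that interval, from 77.1 ± 7.03 to 143 ± 3.41 CPM (0.89, SE 0.06). SMC3, the substrate of ESCO1 and ESCO2, fell in both derived lines, with log2 changes of -0.45 and -0.42 (SE 0.07 each) against MCF10A. HDAC8, which removes the acetyl group from SMC3, had 18.2 ± 1.62, 16.5 ± 1.02 and 13.3 ± 0.20 CPM (SD, n = 3). PDS5A and PDS5B, which bind acetylated cohesin with sororin, fell by 0.66 and 0.82 on the log2 scale in MCF10Ca1a against MCF10A.

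Of 8 factors that tie cohesion to the replication fork, 4 were lower and 1 higher in MCF10AT1 against MCF10A, where 31.8% of all genes were lower. In MCF10Ca1a against MCF10A, 7 were lower and 1 higher (median log2 change -1.01), where 41.9% of all genes were lower. TIMELESS, a fork protection factor, fell most (-1.96, SE 0.06), and CHTF8, a subunit of an alternative clamp loader, was the 1 that rose (0.74, SE 0.06). PCNA, the sliding clamp that recruits ESCO2, was higher in MCF10AT1 (0.31, SE 0.06) and lower in MCF10Ca1a (-1.70, SE 0.07) than in MCF10A. All 7 genes of cohesin protection and cleavage fell between MCF10A and MCF10Ca1a (median log2 change -2.56), by -1.095 for HASPIN to -3.70 for PLK1, a mitotic kinase that helps remove cohesin from chromosome arms. ESPL1, the gene of separase that cuts RAD21, fell from 62.8 ± 3.87 CPM to 28.9 ± 3.27 in MCF10AT1 and 6.02 ± 0.48 in MCF10Ca1a (SD, n = 3). Of the germline cohesin genes STAG3, REC8, SMC1B and RAD21L1, 3 were tested and the summed level of all 4 was at most 1.48 TPM. SMC1B was lower in MCF10AT1 than in MCF10A (log2 change -2.57, SE 0.37) and higher in MCF10Ca1a than in MCF10AT1 (2.88, SE 0.38), at means of 29, 4.67 and 19 counts in the 3 lines. REC8 was lower in MCF10Ca1a than in MCF10A by counts (-0.76, SE 0.26, edgeR adjusted p = 0.0165), at means of 26.7 and 85.7 counts. In TPM its libraries overlapped, with 0.521 to 1.15 in MCF10Ca1a and 0.914 to 1.19 in MCF10A.

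Of 7 CTCF partners, 1 was higher and 4 lower in MCF10AT1 against MCF10A (29.8% and 31.8% of all genes), and 2 were higher and 5 lower in both comparisons of MCF10Ca1a (39% and 41.9% of all genes against MCF10A, 38% and 40.3% against MCF10AT1). PARP1, which modifies CTCF with ADP-ribose, had 505 ± 65.6, 173 ± 3.50 and 95.95 ± 1.27 CPM in the 3 lines (SD, n = 3). Between MCF10A and MCF10Ca1a, PARP1 fell most of these partners (log2 change -2.39, SE 0.08) and YBX1, a Y-box protein, rose most (0.73, SE 0.06). Of 7 paralogs and partners of YY1, ZNF143, MAZ and PATZ1, 6 were tested, and 0 were higher and 3 lower in MCF10AT1 against MCF10A (median log2 change -0.20), 4 higher and 2 lower in MCF10Ca1a against MCF10A (0.50), and 5 higher and 1 lower in MCF10Ca1a against MCF10AT1 (0.70). Between MCF10A and MCF10Ca1a, ZNF76, the closest paralog of ZNF143, rose by 0.67 on the log2 scale (SE 0.08) and HCFC1, a cofactor that ZNF143 recruits, by 0.57 (SE 0.07). YY2, a retrocopy of YY1 with a similar zinc finger domain, fell over the same interval (log2 change -1.56, SE 0.18), from 2.01 CPM in MCF10A. Because YY2 arose from a YY1 transcript, reads could be assigned to the wrong one of the pair. Of 12 LDB1 complex genes, 9 were tested, with 2 higher and 4 lower in MCF10AT1 against MCF10A, 2 higher and 6 lower in MCF10Ca1a against MCF10A, and 2 higher and 5 lower in MCF10Ca1a against MCF10AT1. Between MCF10A and MCF10Ca1a, LMO2, a partner of LDB1 in blood cells, fell most, from 2.05 CPM to 0.094 (a mean of 3.33 counts, near the limit of detection), and RLIM, a ubiquitin ligase that acts on LDB1 complexes, rose most (log2 change 1.27, SE 0.06).

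**Figure D4:**
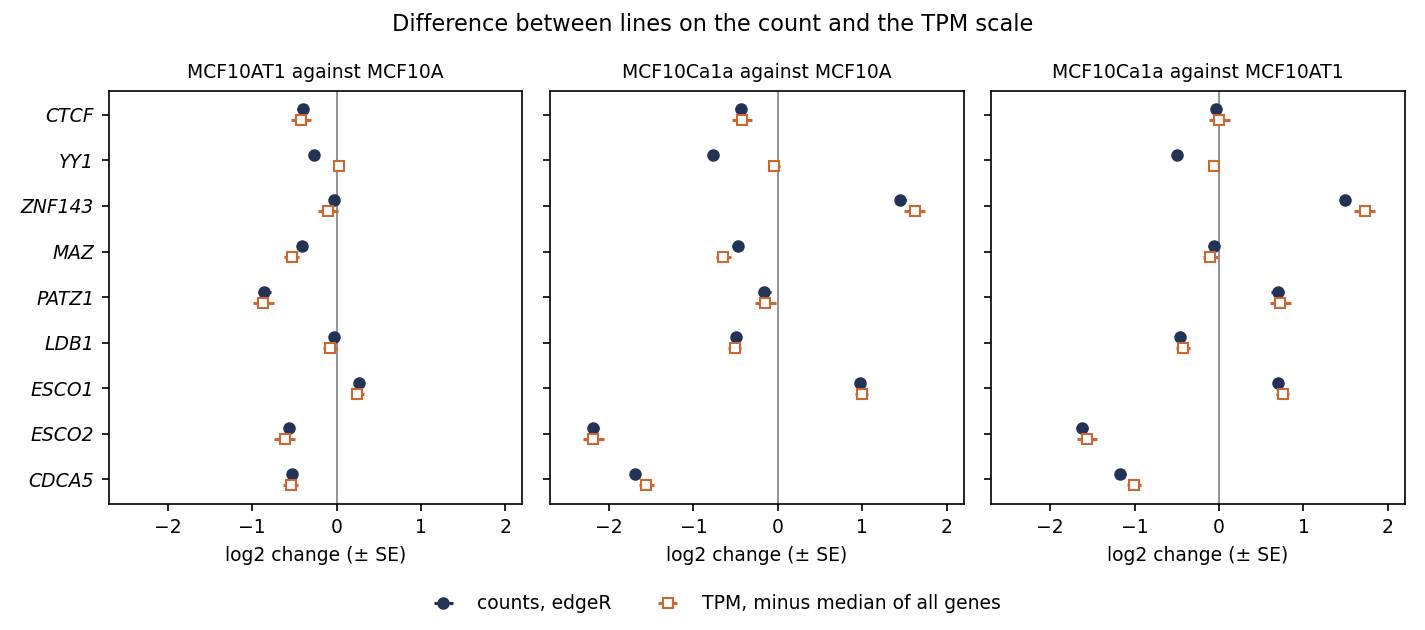
Log2 change ± SE of the 9 members tested in the 3 comparisons, from gene counts (filled circles, edgeR) and from log2(TPM + 0.1) after subtracting the median of all genes (open squares, limma). YY1 is the gene whose count and TPM values lie farthest apart, at -0.77 and -0.04 in MCF10Ca1a against MCF10A.

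On both scales the directions of the remaining members with a called difference held. The TPM values of all genes shifted by a median of -0.11, 0.10 and 0.21 on the log2 scale in the 3 comparisons, in the order used above. Relative to those medians, ZNF143 differed by -0.10, 1.62 and 1.72, ESCO1 by 0.25, 0.99 and 0.75, ESCO2 by -0.62, -2.18 and -1.56, and CDCA5 by -0.54, -1.56 and -1.01.

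For each member, the genes with the most similar profile were found by the root mean square (RMS) distance between log2 CPM values over the 9 libraries, each centred on its own mean, among genes with a mean of at least 100 counts. CTCF was closest to UBL7 (RMS distance 0.03) and CAMKK2 (0.03), and YY1, as a count, to ATP9B (0.03) and MALT1 (0.04). ZNF143 was closest to CALCOCO2 (0.06) and ZNF513 (0.07), MAZ to INTS5 (0.03) and FRMD8 (0.03), PATZ1 to NDRG3 (0.05) and RFX5 (0.06), and LDB1 to ZSCAN9 (0.04) and RHOT2 (0.05). ESCO1 was closest to USO1 (0.03) and FAM107B (0.04). The nearest profiles to ESCO2 were HJURP (0.05), which loads the centromeric histone CENP-A, and ZNF252P (0.06), and those to CDCA5 were FANCI (0.03), a Fanconi anaemia repair gene, and SCLY (0.04).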

How the data were processed

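Polyadenylated RNA of MCF10A, MCF10AT1 and MCF10Ca1a was sequenced with a stranded kit in 3 libraries per line, per the labels' protocols. Salmon and hg38 are named in the submitters' processing notes, with no version. The annotation is not given in the sources used here. The authors deposited estimated counts per gene and per transcript, length-scaled and scaled gene counts, and TPM per gene and transcript. The deposited TPM were used as given.

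Estimated counts were rounded and genes kept with filterByExpr by line (minimum count 10, total 15). The test was edgeR 4.0.16 (R 4.3.3; TMM, all 9 libraries in 1 fit). Depth was 3.29e+07 to 6.95e+07 counts per library (a limit of 3 counts covers counting error only). Shares were tested for transcripts with at least 10 counts in at least 3 libraries, with 0.5 added. limma 3.58.1, DESeq2 1.42.0, other scalings, no filter, thinning, the replicate block and leaving out each library were alternatives. On simulated data for MCF10AT1 against MCF10A with 200 of 17910 genes changed 2-fold, edgeR found 166 and made 16 false calls. All genes were given the same relative spread there and few were changed, whereas 61.6% were called in the data, so these rates need not hold for the data. With shares changed in 200 of 11650 genes, 197 were found with 9 false calls. Positions matched 92.9% of genes through unversioned identifiers.

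The members, lists and alternatives were chosen with earlier results of these data known. All members were named, with at most the 3 largest and 3 smallest changes of each list, 7 cohesin partners, transcripts with at least 10% of their gene's TPM in a line and the 2 nearest profiles per member. Same-numbered libraries did not deviate together (correlations -0.061 to 0.037 over 9 pairs), so no pairing by number was seen, which does not exclude one.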

Additional observations from a re-analysis of the deposited data

How the results depend on the processing

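Over 20 alternative settings and 9 members in 3 comparisons, 505 of 540 fitted changes kept direction and side of the threshold, 9 lost the call, 7 gained one and 19 changed sign. ESCO2, CDCA5 and the MCF10Ca1a changes of ZNF143 and ESCO1 kept direction and call in all 20. YY1 turned to 0.0426 (length-scaled) and 0.0419 (scaled counts) in MCF10AT1 against MCF10A, to 0.0603, 0.0611 and 0.0603 (limma on TPM with an offset of 1, of 0.1, and of 1 with no filter) in MCF10Ca1a against MCF10A, and to 0.144, 0.146 and 0.144 in MCF10Ca1a against MCF10AT1. In that last comparison the TPM settings also turned CTCF, to 0.202, 0.212 and 0.202, and MAZ, to 0.102, 0.104 and 0.102, while CTCF was 0.0107 with DESeq2 size factors, 0.0107 in DESeq2 and 0.000171 after thinning, all without a call. The TPM settings kept the shift of all genes. With its median subtracted on log2(TPM + 0.1), YY1 was at -0.041 in MCF10Ca1a against MCF10A. In MCF10Ca1a against MCF10AT1, CTCF was then at 0.0019, MAZ at -0.106 and YY1 at -0.064. MAZ was called lower there with no filter, length-scaled and scaled counts (adjusted p = 0.038, 0.023 and 0.0331), and CTCF lost its call in MCF10Ca1a against MCF10A on unfiltered TPM (adjusted p = 0.0795). Leaving out single libraries, the uncalled change in MCF10AT1 against MCF10A ran from -0.0632 to 0.0192 for LDB1 (above 0 without MCF10AT1 replicate 2) and from -0.0820 to 0.0172 for ZNF143 (above 0 without MCF10AT1 replicate 3). With the replicate block, genes with changed transcript shares numbered 374 in MCF10AT1 against MCF10A and 3021 in MCF10Ca1a against MCF10AT1 (822 and 4626 without it), the share calls of PATZ1, LDB1 and CDCA5 in the latter were lost, and the members called stayed at 7, 8 and 7. No pairing by replicate number was seen, and the ratio tests with the block could not go below an adjusted p of 0.25. The causes were not tested. The lower depth of MCF10Ca1a limits the precision of its minor transcripts and of LMO2.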

Other observations

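Genes within 500 kb of each member were counted as a description of its neighbourhood. YY1 had 6 tested neighbours, and all 6 were lower in MCF10Ca1a than in MCF10A (median log2 change -1.36), from SLC25A29 at -0.20 to EML1 at -8.51. Of the 9 neighbours of ESCO2, 7 were lower and 0 higher (median -0.95). The neighbours of CTCF went the other way from CTCF itself, with 35 of 47 higher and 10 lower (median 0.73). ESCO1 rose while 4 of its 5 neighbours were lower, MIB1 being the 1 that was higher (0.92). ZNF143 rose among 13 neighbours of which 3 were higher and 8 lower (median -0.48), and CDCA5 fell among 38 of which 19 were higher and 11 lower (median 0.45). MAZ had 24 of 43 higher and 11 lower, PATZ1 4 of 18 higher and 9 lower, LDB1 7 of 20 higher and 8 lower, and the undetected CTCFL 3 of 6 higher and 1 lower. Over all genes, 39% were higher and 41.9% lower in that comparison. DNA copy number was not analysed here.

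Transcripts of the zinc finger gene PATZ1 also differed. Its transcript ENST00000351933.8 took 44.9 ± 5.11%, 50.3 ± 3.94% and 35.2 ± 1.83% of PATZ1's TPM in MCF10A, MCF10AT1 and MCF10Ca1a (SD, n = 3). The transcript ENST00000215919.3 took 33.4%, 32.3% and 30.4%. The minor transcripts ENST00000266269.10 and ENST00000405309.7 took 7.56% and 8.19% in MCF10AT1 and 14.5% and 17.5% in MCF10Ca1a, and were higher in MCF10Ca1a than in MCF10AT1 (log2 change 1.63 and 1.79, SE 0.28 and 0.41, edgeR adjusted p = 0.0027 and 0.0111). The share test called PATZ1 in MCF10Ca1a against MCF10AT1 (limma, adjusted p = 0.0372), a call that held in 6 of 13 alternatives.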
